A study of Mus musculus with 21 samples.

Results

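Notch receptors, ligands and target genes of the endothelium were described across 21 total RNA libraries of CD31+ cells sorted from E0771.lmb tumours, a mouse mammary cancer line grown in mice. The set is the 10 genes Notch1, Notch4, Dll4, Jag1, Jag2, Hey1, Hey2, Heyl, Hes1 and Nrarp, taken by symbol from the 45706 genes of the deposited table, and each symbol gave 1 row. The KO group held 10 libraries from adult Shb flox/flox; Cdh5-CreERt2 mice (Shb iECKO), in which tamoxifen activates Cre under the endothelial Cdh5 promoter. The WT group held 11 libraries from adult wild-type mice, and tumours of both groups were grown after tamoxifen and taken 14 to 16 days after the cancer cells were injected. Whether WT mice carried the floxed allele or the Cre is not given in the sources used here. Shb is an adaptor protein that binds tyrosine kinase receptors, among them the VEGF receptor VEGFR2, and the comparison asks what its loss in endothelium changes. The protocol also names a Vav1-cre line, in which blood cells lose Shb, and a CD45+ magnetic step before the CD31 sort, and no library here is labelled with that line. The 10 KO samples came from 8 tumours and the 11 WT samples from 9, with no record of which share a tumour. Part of the spread behind each p-value may therefore be spread within a tumour. The libraries come from 4 experiments, with 2, 4, 2 and 2 KO and 3, 3, 2 and 3 WT libraries. Of the columns, 2 carry the same header, KO replicate 3 of experiment 2, and are called 3a and 3b here. Both are counted under experiment 2, although 3b shares its 6 decimals with the columns of experiment 4 alone.

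Notch signalling runs between touching cells: a ligand of the Delta or Jagged kind on one cell binds a Notch receptor on the next, the receptor is cut, and its inner part joins the DNA-binding protein RBPJ to switch on target genes. In growing vessels VEGF raises Dll4 in the leading tip cells, and Dll4 restrains sprouting of the neighbours through Notch1. Jag1 opposes Dll4 in this setting, and the Hey and Hes repressors and the feedback inhibitor Nrarp are induced when Notch is active.

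Promoters of 3 genes are shown because they are a target that was almost silent here (Hey2), the target with the highest level (Nrarp) and the ligand with the highest level (Dll4). Each runs from 250 bases before to 50 bases after the start that RefSeq gives on GRCm38.p6, on the gene's own strand, 5′ to 3′. Capitals mark GTGGGAA, a core of the RBPJ motif, or CACGTG, an E-box of the kind that Hes and Hey proteins can bind, on either strand.
Hey2, chr10:30842734-30843033, minus strand: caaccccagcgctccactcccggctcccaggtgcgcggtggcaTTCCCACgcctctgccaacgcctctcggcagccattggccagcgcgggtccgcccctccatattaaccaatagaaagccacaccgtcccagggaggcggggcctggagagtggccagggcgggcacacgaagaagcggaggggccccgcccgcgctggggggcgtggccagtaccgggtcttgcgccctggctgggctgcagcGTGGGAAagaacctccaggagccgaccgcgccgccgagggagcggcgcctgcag
Nrarp, chr2:25180508-25180807, plus strand: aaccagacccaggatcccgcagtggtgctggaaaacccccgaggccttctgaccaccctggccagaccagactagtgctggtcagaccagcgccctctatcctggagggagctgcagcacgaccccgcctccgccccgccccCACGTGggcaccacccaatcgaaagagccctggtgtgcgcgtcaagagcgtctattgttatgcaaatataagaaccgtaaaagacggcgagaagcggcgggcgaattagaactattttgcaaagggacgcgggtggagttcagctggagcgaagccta
Dll4, chr2:119325534-119325833, plus strand: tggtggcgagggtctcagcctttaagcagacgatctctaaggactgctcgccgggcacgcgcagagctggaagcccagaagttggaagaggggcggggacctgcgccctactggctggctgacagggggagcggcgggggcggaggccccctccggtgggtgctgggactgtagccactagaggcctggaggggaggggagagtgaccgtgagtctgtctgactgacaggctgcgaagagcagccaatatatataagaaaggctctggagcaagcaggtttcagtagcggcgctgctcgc

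Counting from 1 at the 5′ end, the Hey2 window held GTGGGAA at bases 247 to 253 as printed and at bases 44 to 50 on the other strand. CACGTG stood at bases 143 to 148 of the Nrarp window, and the Dll4 window held neither run of letters. Of 32851 promoters of the same length, 6.38% held GTGGGAA and 7.15% held CACGTG, the 2 motifs searched for, which do not overlap each other in these windows. Promoter entries were found for 7 of the 10 genes, and those of Hes1, Hey1 and Heyl were not among them. Of these 7, Hey2 alone held GTGGGAA and Nrarp alone held CACGTG. The windows of Notch1, Notch4, Jag1 and Jag2, not printed here, held neither. A match describes letters only.

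Endothelial markers were abundant in most libraries. The 10 endothelial markers summed to between 1177 and 7108 TPM in KO libraries and between 405 and 8256 TPM in WT libraries, where TPM is the number of reads per unit of gene length, set to 1 fixed total in each library. Pecam1, which encodes CD31, stood below 0.5 times its median of 1235 TPM in 3 libraries. KO replicate 2 of experiment 4 had 242 TPM, WT replicate 1 of experiment 2 had 461 TPM, and WT replicate 2 of experiment 4 had 95.04 TPM. Krt8, a keratin of epithelial cells, reached 69.4 TPM in the KO library and 66.3 and 269 TPM in the 2 WT libraries of these 3. Epcam, Krt18, Krt19, Krt7, Krt14 and Cdh1, the other defining epithelial markers on the list except Cldn3, had a median of 0 TPM over all libraries. Epcam and Krt18 stood at 16.0 and 23.7 TPM in that KO library, and both at 0 TPM in WT replicate 2 of experiment 4. In WT replicate 1 of experiment 2 they stood at 0.46 and 0.71 TPM. The epithelial list also summed to 143 TPM in WT replicate 2 of experiment 3, where Pecam1 stood at 856 TPM. Shb itself averaged 22.8 ± 16.6 TPM over the KO libraries and 37.3 ± 18.1 TPM over the WT libraries (SD, n = 10 and 11). Its log2(TPM + 1) difference was -0.91, with a two-sided exact permutation p = 0.0223 (0.00524 to 0.227 over the alternatives tried). Its limma adjusted p was 0.820. In experiments 1 and 3 the Shb differences were 0.29 and -0.061, so Shb did not set the KO libraries of those experiments apart.

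**Figure D1:**
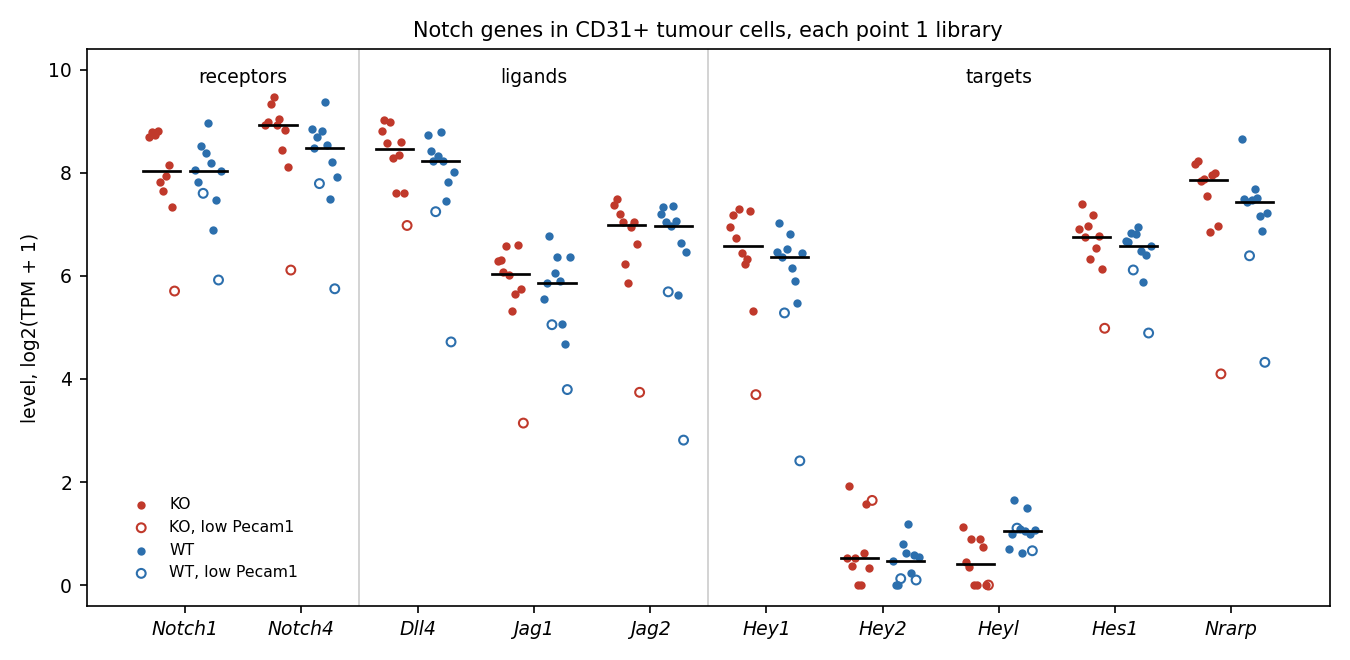
Level of each of the 10 genes, as log2(TPM + 1) on a linear axis, in every library, with KO to the left of WT, medians as black lines and the 3 libraries low in Pecam1 as open circles. KO and WT points overlap for all 10 genes, and the lowest point of each of the 8 well-expressed genes in either group is an open circle.

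The receptors were among the most abundant transcripts of the set. Notch4, a receptor largely restricted to endothelium, had the highest mean of the 10 genes at 391 ± 180 TPM (SD, n = 21 libraries). It ran from 68.3 TPM to 712 TPM with a median of 487 TPM in KO, against 52.8 TPM to 668 TPM with a median of 357 TPM in WT. Nearly the whole range was shared by both groups, and in each group the lowest library was one of experiment 4. The experiment-adjusted log2 difference in Notch4 was 0.33 (SE 0.30, 95% interval -0.30 to 0.95), with a limma adjusted p = 0.908 over 13503 genes. Notch4 (ENSMUSG00000015468) maps to chromosome 17, bases 34564268 to 34588503, plus strand of GRCm38.

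Notch1, the receptor through which Dll4 limits sprouting, ranked below Notch4 and Dll4. It ran from 51.2 TPM to 451 TPM with a median of 264 TPM in KO, against 59.6 TPM to 500 TPM with a median of 263 TPM in WT. The medians were thus nearly equal, and the log2 difference was 0.075 (SE 0.30, limma adjusted p = 0.982). Notch1 (ENSMUSG00000026923, chromosome 2 from 26457903 to 26516663, minus strand) has annotated genes on the opposite strand over its exons, as do Dll4 and Nrarp. The kit keeps strand, but whether the counting used it is not given in the sources used here, so reads of these antisense partners cannot be told apart. The log2 ratio of Notch4 to Notch1 was 0.66 ± 0.37 over the KO libraries and 0.37 ± 0.33 over the WT libraries (SD, n = 10 and 11), with no test made of this difference. Notch2 and Notch3, the other receptors, were low. Notch2 averaged 6.46 ± 3.23 TPM in KO and 20.9 ± 26.3 TPM in WT (SD, n = 10 and 11), while its medians were close, at 5.775 and 6.09 TPM. Its log2 difference was -0.81 (SE 0.57, limma adjusted p = 0.849). Notch3, typical of pericytes and smooth muscle, averaged 4.63 ± 5.57 TPM in KO and 7.10 ± 5.52 TPM in WT (SD, n = 10 and 11), with medians of 3.65 and 6.08 TPM.

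Dll4 was the leading ligand and had the largest fitted difference of the 8 genes that passed the filter on low values (at least 1 TPM in at least 10 libraries). It ran from 125 TPM to 523 TPM with a median of 354 TPM in KO, against 25.3 TPM to 441 TPM with a median of 298 TPM in WT. The groups overlapped, and the means were 340 ± 136 TPM over the KO libraries and 269 ± 121 TPM over the WT libraries (SD, n = 10 and 11). The log2 difference in Dll4 was 0.42 (SE 0.32, 95% interval -0.25 to 1.09), a ratio of 1.34 (0.841 to 2.12) on the TPM + 1 scale, with a limma adjusted p = 0.871. By the mean of log2(TPM + 1), Dll4 was higher in KO in 4 of 4 experiments. By mean TPM this held in 3 of 4, as experiment 4 averaged 160 TPM in KO and 170 TPM in WT, with WT replicate 2 there at 25.3 TPM. Without the 3 libraries low in Pecam1 the difference was 0.17 (adjusted p = 0.999). Dll4 (ENSMUSG00000027314) maps to chromosome 2, bases 119325784 to 119335962, plus strand.

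The Jagged ligands were lower than Dll4 in every library. Jag2 ran from 12.4 TPM to 179 TPM with a median of 127 TPM in KO, against 6.03 TPM to 163 TPM with a median of 124 TPM in WT, and its log2 difference was 0.13 (SE 0.41, limma adjusted p = 0.980). Jag1, the ligand that opposes Dll4 in sprouting, ran from 7.84 TPM to 96.1 TPM with a median of 64.7 TPM in KO, against 12.9 TPM to 108 TPM with a median of 57.5 TPM in WT. Its groups overlapped over nearly their whole range, and its log2 difference was 0.12 (SE 0.33, limma adjusted p = 0.976). Jag1 (ENSMUSG00000027276, chromosome 2 from 137081456 to 137116644) and Jag2 (ENSMUSG00000002799, chromosome 12 from 112907819 to 112929776) both lie on the minus strand. Among the other ligands Dll1 was the highest, at 42.9 ± 14.0 TPM over the KO libraries and 40.2 ± 19.5 TPM over the WT libraries (SD, n = 10 and 11).

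Dll4 made up 67.3 ± 7.56% of the summed TPM of Dll4, Jag2 and Jag1 over the KO libraries and 62.6 ± 4.13% over the WT libraries (SD, n = 10 and 11). The share lay between 55.4% and 69.3% in 20 of the 21 libraries, and KO replicate 2 of experiment 4, one of the libraries low in Pecam1, stood alone at 86.1%. The log2 ratio of Dll4 to Jag1 was 2.51 ± 0.54 in KO and 2.23 ± 0.68 in WT (SD, n = 10 and 11), an experiment-adjusted difference of 0.30 (SE 0.29, 95% interval -0.32 to 0.92). The two-sided exact permutation test within experiments gave p = 0.323 for this ratio. By experiment the difference in log2 ratio was 0.24, 0.078, -0.019 and 0.94, and without the 3 libraries low in Pecam1 it was -0.012 (exact p = 0.950).

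**Figure D2:**
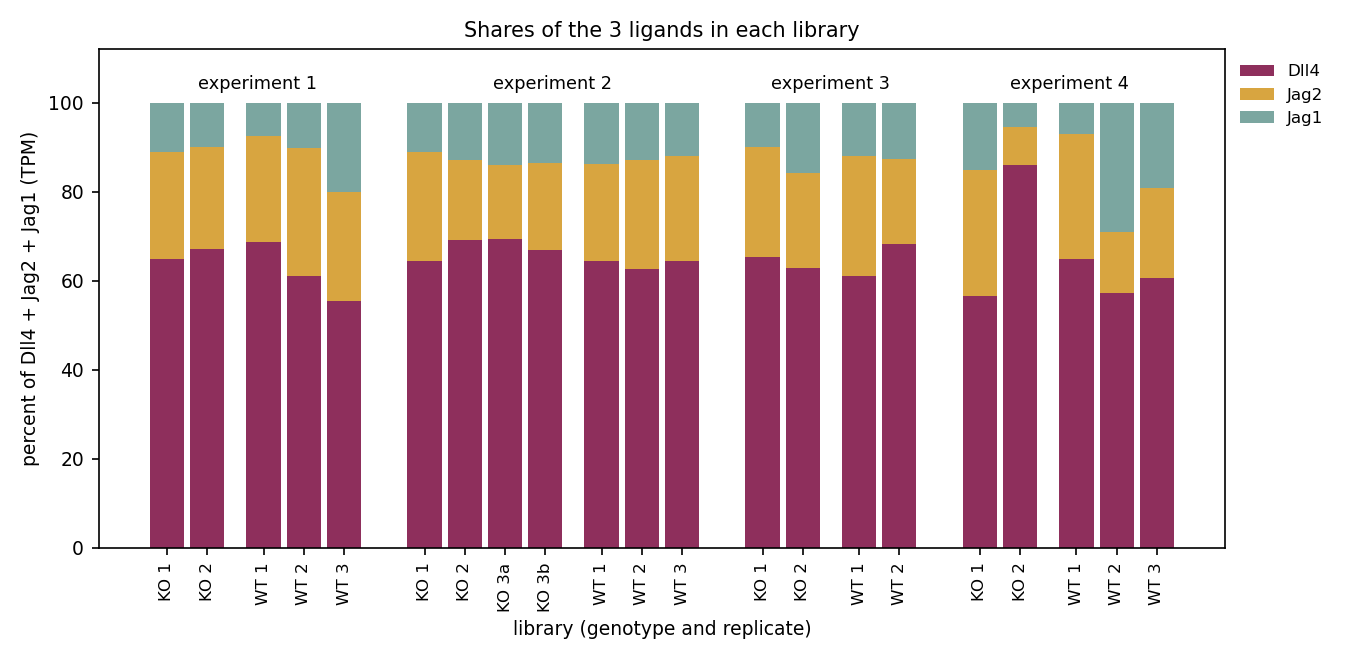
Shares of Dll4, Jag2 and Jag1 in the summed TPM of the 3 ligands, 1 bar per library, with KO to the left of WT within each experiment. Dll4 takes the largest share in every library, and KO replicate 2 of experiment 4 has the tallest Dll4 segment, at 86.1%.

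Hey1 had the largest fitted difference of the 3 targets that passed the filter, Hey1, Hes1 and Nrarp. Hey1, a repressor induced by Notch in arterial endothelium, ran from 12.0 TPM to 157 TPM with a median of 95.7 TPM in KO, against 4.32 TPM to 129 TPM with a median of 81.5 TPM in WT. The groups overlapped, and the log2 difference was 0.35 (SE 0.37, 95% interval -0.40 to 1.11, limma adjusted p = 0.917). Hey1 (ENSMUSG00000040289) maps to chromosome 3, bases 8663359 to 8667256, minus strand.

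Hes1, a repressor of the Hairy and Enhancer of split family that answers to other signals besides Notch, was the least variable of the well-expressed genes. It ran from 30.7 TPM to 168 TPM with a median of 108 TPM in KO, against 28.7 TPM to 123 TPM with a median of 94.6 TPM in WT, and its log2 difference was 0.16 (SE 0.23, limma adjusted p = 0.941). Nrarp, a small ankyrin-repeat protein that damps the Notch transcription complex and whose promoter with the E-box is printed above, ran from 16.1 TPM to 300 TPM with a median of 232 TPM in KO, against 19.0 TPM to 401 TPM with a median of 172 TPM in WT. Both groups of Nrarp overlapped, although the KO median lay above all but 1 of the 11 WT libraries, and the log2 difference was 0.17 (SE 0.36, limma adjusted p = 0.969). Hes1 (ENSMUSG00000022528) lies on chromosome 16 from 30064384 to 30067796 and Nrarp (ENSMUSG00000078202) on chromosome 2 from 25180758 to 25183339, both on the plus strand.

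Hey2 and Heyl, the relatives of Hey1, were close to silent. Hey2 reached 1 TPM in 4 of the 21 libraries and Heyl in 8, so neither passed the filter, and the remaining 8 genes are those tested. Hey2, which marks arterial endothelium and whose promoter with 2 separate runs of RBPJ letters is printed above, ran from 0 TPM to 2.77 TPM with a median of 0.435 TPM in KO, against 0 TPM to 1.26 TPM with a median of 0.39 TPM in WT. It was listed at 0 in 2 KO and 2 WT libraries, and fitted without the filter its log2 difference was 0.36 (SE 0.25, limma unadjusted p = 0.163, adjusted p = 0.794). Hey2 (ENSMUSG00000019789) maps to chromosome 10, bases 30832359 to 30842801, minus strand.

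Heyl ran the other way. This Hey family member, found in pericytes and smooth muscle as well as endothelium, ran from 0 TPM to 1.19 TPM with a median of 0.32 TPM in KO, against 0.54 TPM to 2.16 TPM with a median of 1.06 TPM in WT. It was listed at 0 in 4 KO libraries and in 0 WT libraries, and its mean was lower in KO in 4 of 4 experiments. Fitted without the filter, its log2 difference was -0.59 (SE 0.19, 95% interval -0.98 to -0.19, limma unadjusted p = 0.00585), which did not pass over all genes (adjusted p = 0.758). At this low level the size rests on the scale: it was -1.75 with a pseudocount of 0.1 TPM and -0.21 with the libraries shifted to a common median. That median was taken over all genes above 0 TPM in any library, not over the filtered genes. With TPM rescaled without mitochondrial and small noncoding RNA genes Heyl passed the filter, at -0.71. In that setting 1 of the 9 genes tested had an unadjusted p under 0.05 in limma, beside 922 of 13708 genes. After adjustment 0 of the 9 passed, where 1 of all genes did. The 4 KO libraries with Heyl at 0 were those with the fewest genes above 0 TPM in their group, between 12178 and 13521, against 14208 to 19022 in the other 6 KO libraries and 12550 to 20526 in WT, and the part of this in the result was not tested. Heyl (ENSMUSG00000032744) maps to chromosome 4, bases 123233556 to 123249875, plus strand.

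Heyl varied with markers of pericytes and smooth muscle. Of the 8 on the list 6 were tested, 0 passed and 0 had a log2 difference above 0, beside 36% of all genes. The list summed to between 14.5 and 163 TPM in KO and between 42.0 and 196 TPM in WT, and no marker had a median of 0. Over 21 libraries centred within experiments, Heyl correlated with the mean of the list with Pearson r = 0.76 (permutation p = 6.3e-04, adjusted p = 0.00252) and Spearman rho = 0.80 (permutation p = 3e-04, adjusted p = 0.0012), and r was 0.68 without the 2 libraries farthest in the list mean. Adjustment was over 4 lists, chosen after the values of Heyl were seen. Values were not centred within genotype, and the mean of this list was also lower in KO, with a log2 difference of -0.74 (SE 0.27). The KO difference is therefore part of this r and its p. The leukocyte and fibroblast lists were lower in KO as well. Heyl gave r = 0.07 with the endothelial list (rho = 0.15, permutation p = 0.833), 0.35 with the leukocyte list (rho = 0.35, permutation p = 0.0985) and 0.52 with the fibroblast list (rho = 0.49, permutation p = 0.0139). The fibroblast list also passed after adjustment by r (adjusted p = 0.0278) and not by rho (adjusted p = 0.0607), and no difference between lists was tested. Without the 2 farthest libraries r was 0.10, 0.22 and 0.37 for these 3 lists. In bulk cells, fewer cells of a type and less RNA per cell cannot be told apart, and the part of these cells in the difference was not tested.

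Of the 8 genes tested, 0 passed in KO against WT at an adjusted p under 0.05 in limma, and 0 had an unadjusted p under 0.05. Over all genes 0.00741% passed, which is 1 gene of 13503 and none of the set, and 5.88% had an unadjusted p under 0.05. The adjusted p of the 8 genes ran from 0.871 to 0.982. Their 95% intervals all included 0, with the lowest bound at -0.73 (Jag2) and the highest at 1.11 (Hey1). All 8 fitted differences lay above 0, with a median of 0.17, where 36% of all genes tested lay above 0 and the median over all genes was -0.11. Shifting the libraries to a common median moves the median of all genes to -0.0063 and each of the 8 differences up by the same amount, to between 0.18 and 0.53. As the level of the 8 genes follows the same libraries, as given next, their common sign is not 8 separate observations.

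**Figure D3:**
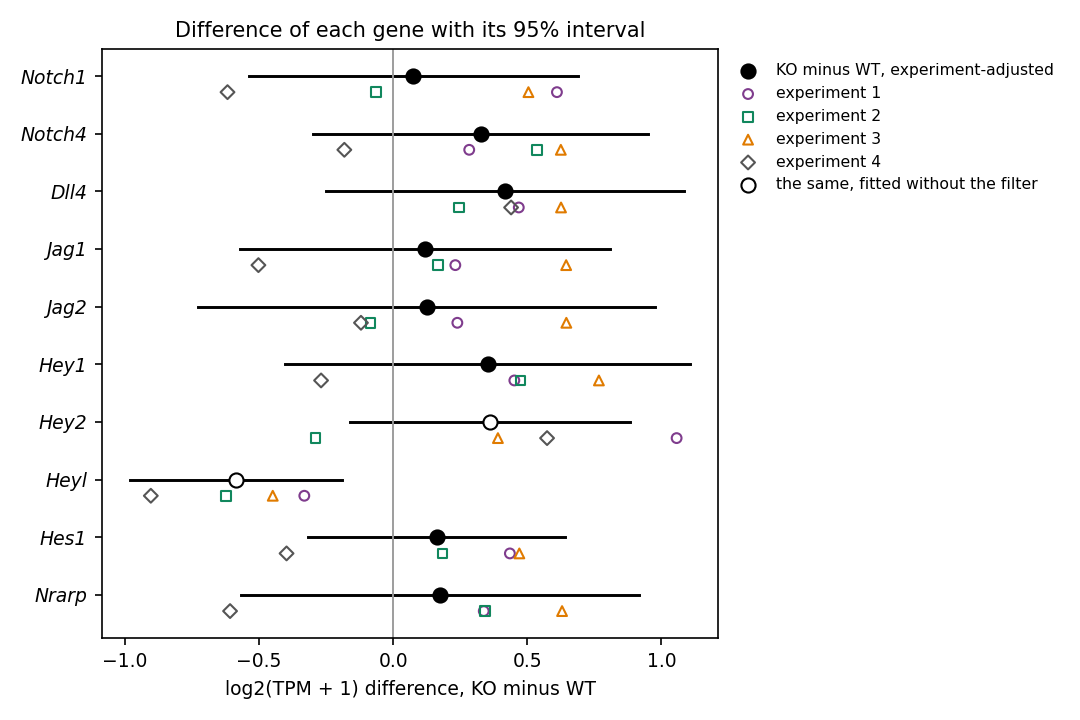
Difference in log2(TPM + 1), KO minus WT, for each gene: large circles are the experiment-adjusted fit with its 95% interval (open for Hey2 and Heyl, fitted without the filter), and small symbols below are the differences of means in each experiment. The intervals of all genes except Heyl cross 0, and the experiment 4 symbols lie left of 0 for 7 of the 8 filled circles.

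The fitted signs were not the same in all experiments. In experiments 1, 2 and 3 the mean of log2(TPM + 1) was higher in KO for 8, 6 and 8 of the 8 genes, with median log2 differences of 0.39, 0.22 and 0.63. In experiment 4 it was higher in KO for 1 of the 8, Dll4 at 0.44, and the median was -0.33. By mean TPM all 8, Dll4 included, were lower in KO in that experiment. These counts keep column 3b in experiment 2, although its 6 decimals are shared only by the columns of experiment 4. For each of the 8 genes 3b lay above the KO mean of experiment 4, for Notch4 at 525 TPM against 173 TPM. Counting 3b there would thus raise the KO side of all 8, and the signs in that case were not computed. The median log2 difference over all genes moved too. It was -0.11 with all experiments, 0.043 without experiment 4 and 0.018 without KO replicate 2 of experiment 4. For the 8 genes these medians were 0.17, 0.37 and 0.43. The share of all genes above 0 within each experiment was not computed. A difference between experiments in the KO effect was not called for any of the 8 (limma F test, unadjusted p from 0.506 to 0.984, adjusted p = 1.00), where 0% of all genes passed and 3.84% had an unadjusted p under 0.05. Each experiment holds between 2 and 4 libraries per genotype, and experiment 4 holds both a KO and a WT library low in Pecam1.

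Levels differed between experiments for 5 of the 8 genes. Notch4 averaged 444, 530, 338 and 188 TPM in experiments 1 to 4, and Hey1 averaged 113, 94.7, 90.2 and 36.9 TPM. Both were lowest in experiment 4, as were the other 3 genes that passed the limma F test between experiments, Notch1, Dll4 and Nrarp. Adjusted p was 0.0308 for Notch1, 0.0166 for Notch4, 0.0482 for Dll4, 0.0173 for Hey1 and 0.0191 for Nrarp, and 0.0515, 0.0528 and 0.0816 for Hes1, Jag2 and Jag1, which did not pass. These 5 of 8 stand beside 29.1% of all genes that passed this test. The count rested on a few libraries: it was 0 without KO replicate 2 of experiment 4, 2 without WT replicate 2 and 8 without WT replicate 3 of that experiment, 3 without WT replicate 3 of experiment 2, and 1 without the 3 libraries low in Pecam1. It was also 0 with the libraries shifted to a common median. The number of all genes that passed also changed with these settings, as given in the section on processing choices below. With the column called 3b counted under experiment 4, the 5 that passed were Notch1, Dll4, Jag2, Hey1 and Nrarp, without Notch4, and with 3a counted there Hey1 alone passed.

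**Figure D4:**
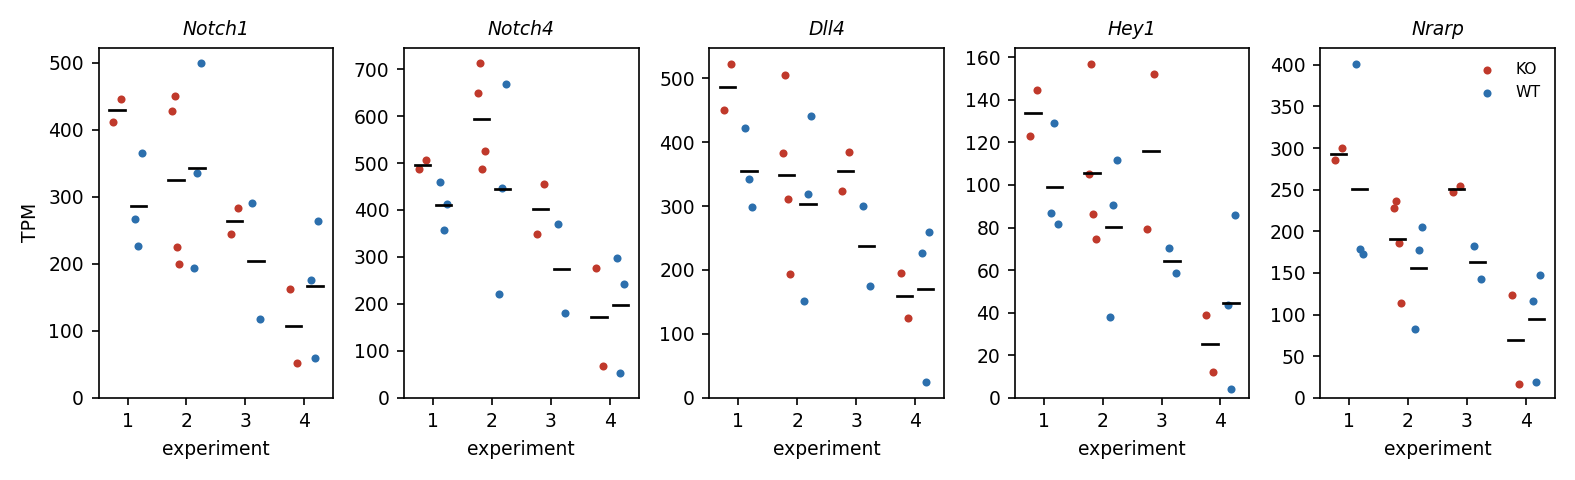
TPM of Notch1, Notch4, Dll4, Hey1 and Nrarp in every library by experiment, on linear axes from 0, with KO to the left of WT and group means as black lines. The means over all libraries of an experiment are lowest in experiment 4, with Notch4 averaging 188 TPM there and 338 to 530 TPM in the other experiments, and single libraries of experiment 4 overlap with the others.

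Levels followed Pecam1 from library to library. Over 21 libraries centred within experiments, Pearson r with Pecam1 was 0.95 for Jag2, 0.94 for Notch4, 0.90 for Nrarp, 0.89 for Dll4, 0.88 for Hes1, 0.88 for Hey1, 0.82 for Notch1 and 0.70 for Jag1. Spearman rho of these 8 genes ran from 0.62 for Jag1 to 0.89 for Nrarp. The permutation p, taken within experiments, ran from 4e-05 for Notch4 to 0.0265 for Jag1, and all 8 passed after adjustment over the 10 genes (highest adjusted p = 0.0331, and 0.0301 for rho). Hey2 gave r = 0.17 (rho = 0.28, permutation p = 0.574) and Heyl r = -0.02 (rho = -0.01, permutation p = 0.942). Among all genes tested the median r with Pecam1 was 0.25, and 5.94% reached 0.8, as did 7 of the 8 genes here.

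Part of this relation rested on 2 libraries of experiment 4. Without KO replicate 2 and WT replicate 2, which lie farthest in Pecam1, r ran from 0.43 for Jag1 to 0.87 for Notch4, and Jag1 no longer passed (permutation p = 0.0731, adjusted p = 0.0812). Hey2 then gave r = 0.51 (permutation p = 0.023, adjusted p = 0.0313), at levels near 1 TPM or below in most libraries. Within experiment 2 alone, the largest with 7 libraries, r of the 8 genes with Pecam1 ran from 0.74 to 0.90. The other experiments hold 5 or fewer libraries each and give no value of their own.

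**Figure D5:**
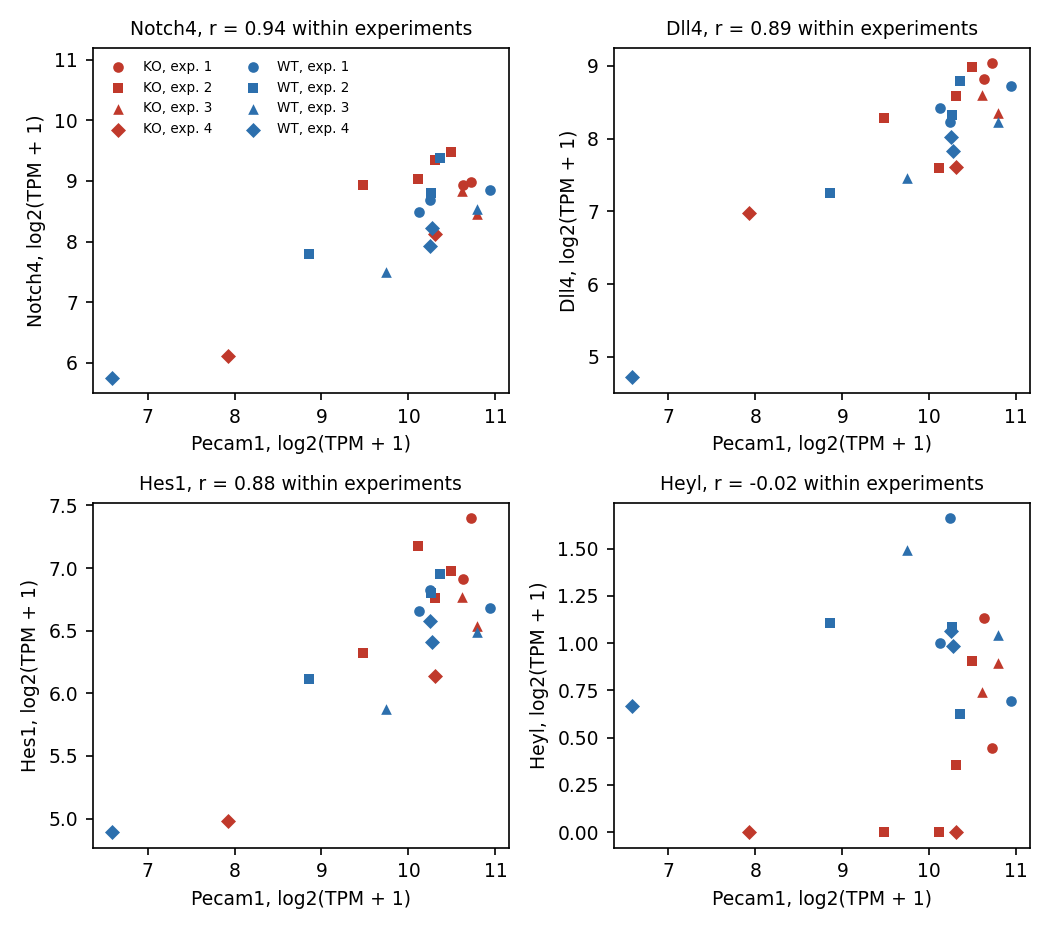
Levels of Notch4, Dll4, Hes1 and Heyl against Pecam1 in the 21 libraries, all as log2(TPM + 1), with KO red, WT blue and symbols by experiment. Notch4, Dll4 and Hes1 climb with Pecam1, with r of 0.94, 0.89 and 0.88 within experiments, and Heyl does not, with r of -0.02.

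The 8 genes also varied with each other. As a description, Pearson r within experiments ran from 0.66 to 0.93 over their 28 pairs with a median of 0.85, and from 0.23 to 0.84 with a median of 0.60 in the 18 libraries that are left without those low in Pecam1. Each r shares the libraries and the fixed TPM sum. With the mean of the endothelial markers in the model, which averaged 8.36 ± 0.80 over the KO libraries and 8.22 ± 1.20 over the WT libraries on the log2 scale (SD, n = 10 and 11), 6 of the 8 KO differences lay above 0, led by Dll4 at 0.31 (adjusted p = 0.606), and Notch1 and Jag2 were at -0.011 and -0.020.

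Most tested markers of other cells had log2 differences at or below 0, where 36% of all genes lay above it, and none passed. None of the 9 tested leukocyte markers of 14 lay above 0, and the list summed to between 35.9 and 204 TPM in KO and between 57.6 and 3397 TPM in WT, or 476 TPM at most without WT replicate 2 of experiment 3, with medians of 53.7 TPM in KO and 181 TPM in WT. Listed at a median of 0 were Cd3e, Cd3g, Ms4a1 and S100a8. None of the 5 tested fibroblast markers of 7 lay above 0, and that list summed to between 10.2 and 153 TPM in KO and between 28.7 and 576 TPM in WT, with Lum at a median of 0. Of the 10 endothelial markers 9 lay above 0, and of the 5 lymphatic endothelial markers 1 did. The lymphatic list summed to between 12.7 and 180 TPM in KO and between 17.4 and 199 TPM in WT. With the means of the leukocyte and fibroblast lists in the model, 0 of the 8 Notch genes lay above 0 and their differences ran from -0.69 for Jag2 to -0.14 for Dll4. The count above 0 was thus 8 in the main fit and 0 with these lists. The median of the 8 genes went from 0.17 to -0.34, and that of all genes tested from -0.11 to -0.25. Beyond this the part of other cells in the result was not tested.

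The order of levels was the same in both genotypes for the 8 well-expressed genes. Over 21 libraries Notch4 averaged 391 TPM, Dll4 303, Notch1 271, Nrarp 182, Jag2 108, Hes1 95.8, Hey1 84.4 and Jag1 58.4 TPM, and then followed Heyl at 0.778 and Hey2 at 0.62 TPM. Nrarp exceeded Jag2 in 21 of 21 libraries, and Jag1 exceeded Heyl in 21 of 21. Neighbours in the middle of the order were not separated beyond their spread: Dll4 exceeded Notch1 in 13 of 21 libraries, Jag2 exceeded Hes1 in 14, Hes1 exceeded Hey1 in 15, and Heyl exceeded Hey2 in 12. Hey2 and Heyl swapped places between the genotypes, with Hey2 the higher of the pair on average in KO, at 0.881 ± 1.01 TPM against 0.423 ± 0.445 TPM (SD, n = 10), and Heyl the higher in WT, at 1.10 ± 0.497 TPM against 0.384 ± 0.382 TPM (SD, n = 11).

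Other genes of the Notch pathway gave no call either. Of 61 listed genes 54 were tested and 0 passed in either direction, where 0.00741% of all genes did, with 18 of 54 above 0 beside 36% of all genes, and a median log2 difference of -0.040. Of the 54, 1 had an unadjusted p under 0.05, a smaller share than the 5.88% of all genes. That gene was Dtx2, an E3 ubiquitin ligase of the Deltex family that acts on Notch, at 12.3 ± 3.51 TPM in KO and 18.2 ± 9.15 TPM in WT (SD, n = 10 and 11), a log2 difference of -0.52 with the same sign in 4 of 4 experiments on that scale (unadjusted p = 0.0436, limma adjusted p = 0.820). Egfl7, a protein that endothelial cells secrete and that can antagonise Notch, averaged 2436 ± 1206 TPM in KO and 1688 ± 1021 TPM in WT, and its log2 difference of 0.51 had the same sign in 4 of 4 experiments (limma adjusted p = 0.861). On the same side stood Gata2 at 0.37, the arterial factor Sox17 at 0.27 and the fringe glycosyltransferase Mfng at 0.25, with limma adjusted p of 0.911, 0.944 and 0.941. On the lower side stood Dtx4 at -0.76, Notch3 at -0.60 and Rbpj, the DNA-binding partner of Notch, at -0.40, with limma adjusted p of 0.820, 0.846 and 0.842. Between experiments 21 of the 54 passed, beside 29.1% of all genes.

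Genes with the most similar pattern were looked up for Dll4, Hey1 and Hes1 among the 9270 genes of at least moderate level (mean log2(TPM + 1) of 3 or more), by Pearson r within experiments over 21 libraries. For Dll4 they were Gimap8 (r = 0.97), Stab1 (0.96) and Adgrl2 (0.96). For Hey1 they were Mecom (0.97), Nsd1 (0.97) and Bcl6b (0.96), and for Hes1 Zfp423 (0.95), Arhgap27 (0.95) and Hoxd8 (0.94). In the 18 libraries without those low in Pecam1, the 9 values ran lower, between 0.82 for Arhgap27 and 0.94 for Adgrl2.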

How the data were processed

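Libraries were built from 30 ng of total RNA with a kit that keeps strand and removes ribosomal RNA, and sequenced as 150-base pairs, per the labels' protocols. The deposited table holds TPM values that the authors computed for 45706 genes, and column totals lay between 999999.2 and 1000000.6. Per the submitters' processing notes the genome was GRCm38. Which aligner and counter the authors ran is not given in the sources used here. Since TPM drops the depth, counting intervals cannot be given, and 1 very abundant transcript lowers all other values of its library. The values are written with decimal commas, which were read as decimal points.

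Columns were assigned to genotype and experiment by their headers. Of them 2 carry the header of KO replicate 3 of experiment 2 and none that of KO replicate 3 of experiment 4. The first (3a) and second (3b) were both used as KO libraries of experiment 2. Values of 3b have up to 6 decimals, as in all columns of experiment 4, while 3a and all other columns have 2. By this 3b may be the missing column of experiment 4, which the headers do not settle. Placing 3a or 3b in experiment 4, or leaving out both, was tried.

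The 13503 genes that reached 1 TPM in 10 or more libraries were tested on log2(TPM + 1) with limma 3.58.1 (R 4.3.3, statmod 1.5.0), with genotype and experiment terms, a trended and robust prior and Benjamini-Hochberg adjustment at 0.05 over all genes. Fold changes are on this scale, which understates low genes. Shb and the Dll4 to Jag1 ratio were tested by exact permutation of genotype within experiments (21000 arrangements). Correlations were tested by 100000 permutations within experiments, on values centred by experiment and not by genotype. The limma and permutation steps were checked on simulated data. The members, lists and rules were chosen with earlier results of these data known. Named beyond the 10 genes are Shb, marker lists by their highest genes, up to 4 other pathway genes per direction with the smallest p and the same sign in at least 3 experiments, the 3 highest other ligands and receptors, and the 3 nearest genes of Dll4, Hey1 and Hes1 by correlation. Krt8, Epcam, Krt18 and the Heyl relations were chosen after values were seen. Promoters are RefSeq's on GRCm38.p6, and gene positions are GENCODE's on GRCm38. Within an experiment and genotype no 2 libraries were copies.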

Additional observations from a re-analysis of the deposited data

Results flagged for a closer look

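In the KO group, 1 library stood apart from the other 9 on log2(TPM + 1) for 6 of the 10 genes. The gap between the lowest library and the next, as a share of the whole range of the group, was 0.527 for Notch1, 0.597 for Notch4, 0.632 for Jag1, 0.564 for Jag2, 0.479 for Hes1 and 0.664 for Nrarp, where 0.466 is the 95% limit for 10 samples. In each case the lowest was KO replicate 2 of experiment 4, which had 242 TPM of Pecam1. The log2 ratio of Dll4 to Jag1 was set apart in the same library, there as the highest, with a gap of 0.564 of the range. Chance flags about 1 in 20 groups, and the 7 values come from 1 library. Of the 12 quantities looked at in this way, Dll4, Hey1, Hey2, Heyl and Shb gave gaps under the limit. The WT group, with 11 libraries, was not tested so.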

How the results depend on the processing

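In KO against WT, 0 of the 10 genes passed under any alternative that was run. Without experiment 4 the 8 genes tested all lay above 0 with a median of 0.37. Of them 2 had an unadjusted p under 0.05 in limma there, beside 1057 of 12913 genes. With the replicate block 1 of the 8 did, beside 1017 of 13503 genes, and with the endothelial mean 1 did, beside 1079 of 13503. Of all genes, 1 passed, with 2 on a common median and 0 with a replicate block, without experiment 1 or without experiment 2. With leukocyte and fibroblast marker means in the model, the difference turned to -0.48 for Notch1, -0.27 for Notch4, -0.14 for Dll4, -0.48 for Jag1, -0.69 for Jag2, -0.30 for Hey1, -0.21 for Hes1 and -0.38 for Nrarp. With the endothelial mean it was -0.011 for Notch1 and -0.020 for Jag2. Without experiment 3 it was -0.029 for Notch1, -0.0087 for Jag1 and -0.00043 for Jag2, and without experiment 1 it was -0.089 for Notch1. Leaving out each library moved Notch1 between -0.045 and 0.27, Jag1 between -0.030 and 0.39, Jag2 between -0.12 and 0.38, Notch4 between 0.19 and 0.54, Dll4 between 0.20 and 0.54, Hey1 between 0.14 and 0.55, Hes1 between 0.077 and 0.31 and Nrarp between 0.020 and 0.48. Hey2 ran from 0.15 to 0.76 and Heyl from -1.75 to -0.21 over their alternatives, added after the data were seen, with adjusted p of 0.525 or more. The Dll4 to Jag1 ratio difference was -0.012 without the libraries low in Pecam1. Apart from the alternatives whose own construction changes the samples or terms, the cause of these changes was not tested.

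Shb stood at -0.77 with the replicate block, -0.57 without experiment 2, -0.62 without experiment 4, -0.82 without the 3 libraries of low Pecam1, -0.71 without KO replicates 3a and 3b, and -0.91 in limma over all genes. It no longer passed in these 6 settings, with exact p of 0.112, 0.227, 0.165, 0.0748 and 0.0688 in the first 5 and an adjusted p of 0.820 in limma. Between experiments, 5 of the 8 genes and 3931 of all genes passed. These were 3 and 2529 with no filter, 0 and 2496 on a common median, 0 and 1896 without mitochondrial and small noncoding RNA genes, 1 and 1847 without the libraries low in Pecam1, and 1 and 2339 with KO replicate 3a placed in experiment 4. With 3b placed there 5 passed, with Jag2 in place of Notch4. Leaving out each library gave 0 to 8 genes and 2335 to 5015 of all genes.

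With the replicate block, Dll4 stood at 0.52 and Notch4 at 0.41. Deviations of same-numbered KO and WT libraries correlated with r from -0.20 to 0.36 over 10 pairings, of which 2 exceeded 0.1. Both were in experiment 4, at 0.32 and 0.36, and the second joins its KO and WT libraries low in Pecam1. The 2 pairings of experiment 3 gave the same value of -0.20, so the 10 are not separate. Whether replicate numbers pair the samples was thus not settled. TPM keeps no depth, so what depth limits for Hey2 and Heyl is unknown.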
